A study of Mus musculus with 18 samples.

Results

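The genes described here encode 8 surface molecules through which a macrophage speaks to T cells or is itself restrained: Cd40, Cd80, Cd86, Icosl, Cd83, Cd274, Pdcd1lg2 and Cd200r1. They were chosen by gene name from the 21380 genes of the deposited table, and all 8 were among the 14288 genes that reached a normalized count of 10 in at least 3 libraries and were tested. Not all are ligands: Cd40 encodes a receptor of the tumour necrosis factor receptor family that T cells engage through CD40 ligand, and Cd200r1 encodes the inhibitory receptor for CD200.

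A T cell that recognises antigen also reads costimulatory signals on the presenting cell. CD80 and CD86 bind CD28, which favours activation, and CTLA-4, which restrains it, while ICOS ligand (Icosl) binds ICOS. PD-L1 (Cd274) and PD-L2 (Pdcd1lg2) bind PD-1 and dampen the T cell, and CD83 is a surface marker of activated antigen-presenting cells known for keeping MHC class II and CD86 at the surface. Interferon-gamma acts through the kinases JAK1 and JAK2, and interleukin-4 through STAT6; in macrophages the former is known to raise PD-L1 and CD40 and the latter to raise PD-L2.

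RNA was measured in 18 libraries of macrophages grown from mouse bone marrow for 7 days with 30 ng/mL of the growth factor M-CSF. Wild-type mice (WT) and mice with a knockout of Ldha (KO), the gene of the lactate dehydrogenase A subunit, contributed 3 animals each. Cells of every animal were left untreated or were treated for 24 h with recombinant mouse interferon-gamma (IFN-gamma) or interleukin-4 (IL-4), which gives 6 groups of 3 libraries. The series title calls the loss of lactate dehydrogenase macrophage-specific; the strain, age and sex of the animals, the allele and the driver of the deletion are not stated in the labels.

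The libraries held between 9772945 and 49537719 counted reads. Both ends fell in the WT IL-4 group, with replicate 2 the shallowest, replicate 3 the deepest and replicate 1 at 28356015. Ldha was at 20% of the WT mean in untreated KO cells, 25.6% under IFN-gamma and 17.5% under IL-4, and Lyz2, the lysozyme gene typical of macrophages, was at 0.124%, 0.0866% and 0.133% of the WT mean. Nos2, Cxcl9 and Gbp2 rose under IFN-gamma in both genotypes, and Arg1, Chil3, Retnla and Mrc1 rose under IL-4. These genes were not private to 1 stimulus: under IL-4 Nos2 rose by 3.28 in WT and 5.46 in KO cells and Gbp2 by 2.04 and 2.66, and under IFN-gamma Arg1 rose by 2.47 in KO cells. All 9 macrophage markers were detected. Of 7 T and NK cell genes, 2 were in the table, and Cd3d, Cd3e, Cd3g, Cd8b1 and Ncr1 were not. Some markers of dendritic cells, B cells, neutrophils and stromal cells were also detected, with levels given below. Libraries of 1 group differed most under the stimuli. WT replicate 1 under IFN-gamma had a chi-square statistic per gene of 57.5 and 63.4 against the other 2 libraries, which were at 4.49 between them, and KO replicate 1 under IFN-gamma had 35.9 and 33.7, against 14.7. The WT IL-4 libraries were at 44.5 to 62.1 from each other and the KO IL-4 ones at 25.2 to 57.8, where untreated pairs were at 11.1 to 20.98. In bulk RNA, fewer cells of a kind and less RNA per cell cannot be told apart.

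In the GRCm38 build, Cd274 (chr19:29367455-29388095) and Pdcd1lg2 (chr19:29410919-29471161) are neighbours on the plus strand, with 22824 bases between the end of the first and the start of the second. An antisense gene, listed as Gm36043 (chr19:29373417-29384471), overlaps exons of Cd274. Whether reads were counted by strand is not stated in the labels, so reads of these genes cannot be told apart with certainty. Its mean was 1536 normalized counts in WT cells under IFN-gamma, beside 65022 for Cd274. Cd86 (chr16:36603869-36666081), Cd80 (chr16:38455561-38496335) and Cd200r1 (chr16:44765736-44794978) lie on one chromosome. Cd40 is at chr2:165055627-165072948, Icosl at chr10:78069302-78083913 and Cd83 at chr13:43784775-43803132.

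RefSeq promoters of the GRCm38.p6 build matched 4 of the 8 genes by symbol, and 3 are printed because their genes gave the widest contrasts between treatments or genotypes. Each run holds the 250 bases upstream of the RNA start that RefSeq annotates, which for Cd274 and Cd80 is not the GENCODE gene start above, on the plus strand, and capitals mark a motif match.
Pdcd1lg2, chr19:29410669-29410918: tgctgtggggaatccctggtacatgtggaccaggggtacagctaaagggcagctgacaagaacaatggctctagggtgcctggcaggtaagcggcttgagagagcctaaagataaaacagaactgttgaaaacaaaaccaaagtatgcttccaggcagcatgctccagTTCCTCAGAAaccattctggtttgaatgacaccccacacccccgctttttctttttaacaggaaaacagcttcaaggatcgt
Cd274, chr19:29367188-29367437: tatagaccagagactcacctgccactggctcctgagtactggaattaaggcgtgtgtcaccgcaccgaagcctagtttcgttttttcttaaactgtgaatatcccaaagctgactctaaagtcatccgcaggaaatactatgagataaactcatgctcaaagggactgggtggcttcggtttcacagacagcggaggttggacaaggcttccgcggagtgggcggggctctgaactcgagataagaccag
Cd80, chr16:38458683-38458932: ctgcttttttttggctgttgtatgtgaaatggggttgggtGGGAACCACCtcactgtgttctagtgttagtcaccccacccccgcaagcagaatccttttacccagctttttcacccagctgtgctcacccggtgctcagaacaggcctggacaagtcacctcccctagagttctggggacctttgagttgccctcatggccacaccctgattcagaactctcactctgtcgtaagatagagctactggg
Searched on both strands were TTC and GAA with any 4 bases between them (STAT6 type), 2 copies of GAAA with any 2 bases between them (interferon regulatory factor type), and GGGAA and CC with any 3 bases between them (NF-kB type). The Pdcd1lg2 run holds 1 STAT6-type match, TTCCTCAGAA, at bases -82 to -73 counted from the start, and these letters match on both strands. STAT6-type matches were present in 5.85% of the 32851 promoters searched. The Cd80 run holds 1 NF-kB-type match, GGGAACCACC, at -210 to -201, a motif present in 4.94% of promoters. Cd274 held none of the 3 motifs in this window, nor did the fourth matched gene, Icosl, and no match overlapped another. The interferon regulatory factor-type motif was present in 2.98% of promoters. A match is a run of letters and no evidence of binding. Other spellings of these motifs were not searched, so a run without a match may still hold a site.

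Levels of different genes were compared as normalized counts per kilobase of exon. In untreated WT cells Cd83 was the most abundant of the 8 at 1451, followed by Cd200r1 at 1010.5 and Cd274 at 497. Cd86 stood at 143, Icosl at 75.4, Cd40 at 47.5 and Cd80 at 40.2, and Pdcd1lg2 was lowest at 6.50. The libraries of Cd40 and Cd80 overlapped in that order, and those of every other pair of neighbours did not. Under IFN-gamma Cd274 led in both genotypes, at 17952 in WT and 17727 in KO cells, ahead of Cd86 at 3723 and 2814. Under IL-4 Cd274 was again first at 1951 in WT cells, although its libraries overlapped those of Cd83 at 1547, and Pdcd1lg2 had moved from the eighth place to the fourth, at 668 in WT and 460.3 in KO cells. Icosl was then last of the 8, at 19.6 and 18.9.

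**Figure D1:**
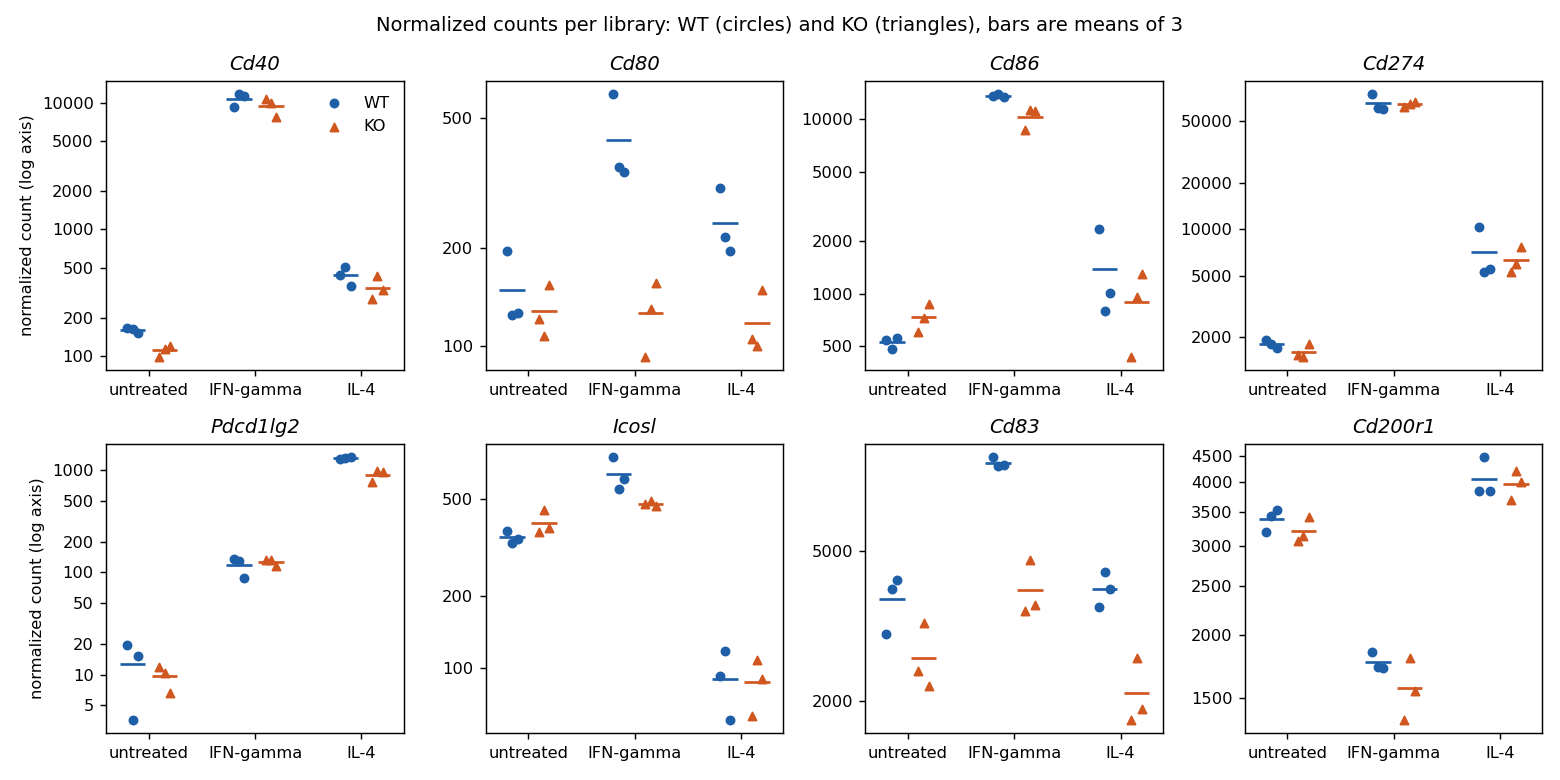
Normalized counts of the 8 genes (log axis) in each library by treatment, with WT as circles, KO as triangles and bars for the mean of 3 libraries. Cd40, Cd86 and Cd274 are highest under IFN-gamma and Pdcd1lg2 under IL-4, while Cd80 and Cd83 under IFN-gamma split by genotype.

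IFN-gamma changed all 8 genes in WT cells. Of these, 7 were higher and 1 was lower than in untreated WT cells, against a background of 62.4% of all tested genes called in that comparison (31.4% higher, 31.1% lower). In KO cells 5 were higher and 1 lower, against 55.8% (28.3% higher, 27.5% lower). Calls here and below are limma's moderated test with Benjamini-Hochberg adjustment over all 14288 genes, at an adjusted p under 0.05, and changes are on the log2(normalized count + 1) scale with their standard error. The median change over the 8 genes was 2.42 in WT and 2.11 in KO cells, where the median over all genes tested was -0.01 in each.

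Cd40 had the steepest rise under IFN-gamma of the 8. Its 3 WT libraries read 167, 165 and 153 normalized counts untreated and 9161, 11648 and 11180.0 under IFN-gamma. The KO libraries read 98.7, 115 and 121 untreated and 10690.0, 9859 and 7766 under IFN-gamma. The treated libraries lay far above all untreated ones and those of the 2 genotypes overlapped. Cd40 changed by 6.03 ± 0.15 in WT (adjusted p = 2.39e-15) and 6.38 ± 0.15 in KO cells (adjusted p = 1.40e-15).

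Among the B7 ligands, Cd86 rose far more than Cd80. Cd86 went from 539, 482 and 553 to 13628, 13889 and 13374 in WT cells. In KO cells it went from 605, 726 and 874 to 8619, 11217 and 11073. Every treated KO library was thus below every treated WT library, while the untreated KO libraries were above the WT ones. Cd86 changed by 4.70 ± 0.34 in WT (adjusted p = 1.65e-09) and 3.81 ± 0.34 in KO cells (adjusted p = 3.39e-08).

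Cd80 rose under IFN-gamma in WT cells, from 196, 124 and 126 to 592, 354 and 341. In KO cells it read 121, 107 and 154 untreated and 92.5, 129.9 and 156 under IFN-gamma. The WT groups did not overlap and the KO groups did. It changed by 1.5 ± 0.26 in WT cells (adjusted p = 7.06e-05) and -0.03 ± 0.26 in KO cells (adjusted p = 0.920), with a 95% interval of -0.58 to 0.51.

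Icosl was at 371, 330.2 and 343 in untreated WT cells and at 749, 554 and 608 under IFN-gamma. KO cells read 368, 450.4 and 379.7 untreated and 479, 492 and 469.6 under IFN-gamma. The treated libraries were above the untreated ones in each genotype, by a wider margin in WT. Icosl changed by 0.86 ± 0.21 in WT (adjusted p = 0.00149) and 0.27 ± 0.21 in KO cells (adjusted p = 0.276).

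Of the PD-1 ligands, Cd274 reached the highest level of any of the 8 genes and the genotypes ran together. WT libraries read 1921, 1793 and 1687 untreated and 74626, 60812 and 59629 under IFN-gamma. KO libraries read 1520.0, 1483 and 1792 untreated and 62098, 64339 and 66188 under IFN-gamma. The log2 change was 5.17 ± 0.19 in WT (adjusted p = 1.97e-13) and 5.33 ± 0.19 in KO cells (adjusted p = 1.65e-13).

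Pdcd1lg2 was barely detected in untreated cells, at 19.5, 3.61 and 15.1 in WT and 11.8, 10.4 and 6.53 in KO libraries, which rest on 47 and 33 reads in all. Under IFN-gamma it read 136, 129.6 and 88.4 in WT and 132, 132 and 115 in KO libraries. All treated libraries were above all untreated ones. The log2 change was 3.34 ± 0.38 in WT (adjusted p = 4.94e-07) and 3.62 ± 0.38 in KO cells (adjusted p = 2.25e-07), and adding 1 to such low counts makes these values smaller than the ratio of the counts.

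Cd83 rose from 3016, 3979 and 4199 to 8928, 8437 and 8474 in WT cells. In KO cells it rose from 2395, 3229 and 2189 to 3467, 4748 and 3601. The treated and untreated libraries did not overlap in either genotype, and every treated KO library was below every treated WT library. Cd83 changed by 1.22 ± 0.17 in WT (adjusted p = 4.64e-06) and 0.60 ± 0.17 in KO cells (adjusted p = 0.00479). The KO call was lost with quantile normalization (0.38, adjusted p = 0.0659) and with equal library totals (0.25, adjusted p = 0.202), a scaling that moved the median of all genes by -0.35 in this comparison.

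Cd200r1 was the one gene of the set that fell under IFN-gamma. It read 3189, 3436 and 3524 in untreated and 1853, 1733 and 1720.5 in treated WT libraries. KO libraries read 3068, 3138 and 3415 untreated and 1361, 1804 and 1554 treated. The groups were separate in both genotypes, with a log2 change of -0.93 ± 0.09 in WT (adjusted p = 9.95e-08) and -1.04 ± 0.09 in KO cells (adjusted p = 3.33e-08).

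**Figure D2:**
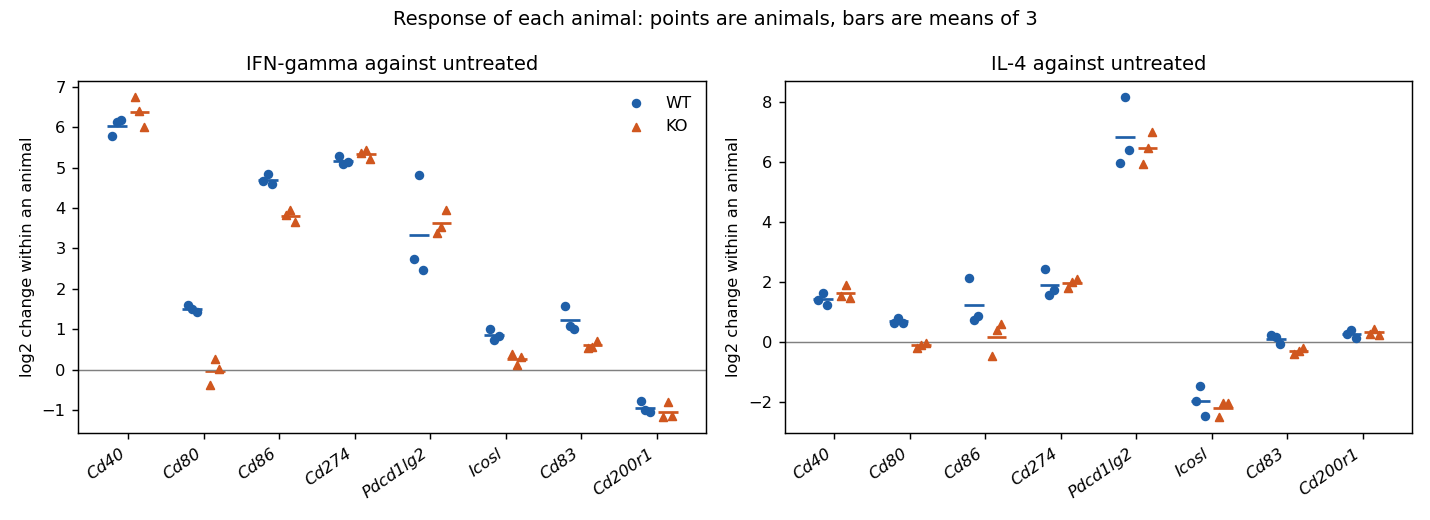
Log2 change of each gene within each animal (vertical axis), under IFN-gamma (left) and IL-4 (right) against untreated, with WT as circles, KO as triangles and bars for the mean of 3 animals. Under IFN-gamma the WT animals lie above the KO animals for Cd80, Cd86, Icosl and Cd83, and the 2 genotypes run together for Cd274 and Cd200r1.

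IL-4 moved fewer of the 8 genes and put a different one in front. In WT cells 5 were higher and 1 lower than untreated, against 30.3% of all genes called (16.3% higher, 14% lower). In KO cells 4 were higher and 1 lower, against 30.2% (15.8% higher, 14.5% lower). The median change of the 8 genes was 0.96 in WT and 0.24 in KO cells.

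Pdcd1lg2 had the largest change under IL-4. From the untreated levels given above it reached 1275, 1311 and 1347 in WT and 769, 988 and 951 in KO libraries. The 2 treated groups lay far above the untreated ones and did not overlap each other. Pdcd1lg2 changed by 6.83 ± 0.38 in WT (adjusted p = 5.62e-10) and 6.45 ± 0.38 in KO cells (adjusted p = 1.03e-09).

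Cd274 rose less under IL-4 than under IFN-gamma, to 10358, 5298 and 5542 in WT and 5303, 5933 and 7610.5 in KO libraries. WT replicate 1 stood well above the other 2. Cd274 changed by 1.90 ± 0.19 in WT (adjusted p = 6.23e-07) and 1.96 ± 0.19 in KO cells (adjusted p = 3.64e-07).

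Cd40 reached 436, 505 and 361 in WT and 285, 427 and 334 in KO libraries under IL-4, above every untreated library. The log2 change was 1.41 ± 0.15 in WT (adjusted p = 2.11e-06) and 1.62 ± 0.15 in KO cells (adjusted p = 3.30e-07).

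Cd86 read 2354, 790.2 and 1009 in WT libraries under IL-4 and 432, 957 and 1303 in KO libraries. WT replicate 1 was again far above the rest of its group, and the KO libraries straddled the untreated KO levels. Cd86 changed by 1.23 ± 0.34 in WT (adjusted p = 0.0106) and 0.16 ± 0.34 in KO cells (adjusted p = 0.768). On leaving out WT IL-4 replicate 1 the WT change was 0.77 (adjusted p = 0.0553).

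Icosl was the gene that fell under IL-4. It read 92.8, 118 and 61.3 in WT and 63.5, 109 and 90.4 in KO libraries, all below every untreated library. Icosl changed by -1.98 ± 0.21 in WT (adjusted p = 1.17e-06) and -2.20 ± 0.21 in KO cells (adjusted p = 2.76e-07).

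Cd80 under IL-4 read 305, 216 and 195 in WT and 105, 100.3 and 148 in KO libraries. The WT change of 0.68 ± 0.26 missed the threshold (adjusted p = 0.0559). It passed in the fit that kept the animal as a block (adjusted p = 0.00106). Each WT animal rose, by 0.62 to 0.79. The KO change was -0.12 ± 0.26 (adjusted p = 0.772).

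Cd83 under IL-4 read 3558, 4407 and 3975 in WT and 1781, 2605 and 1906 in KO libraries. Neither change passed, at 0.10 ± 0.17 in WT (adjusted p = 0.680) and -0.31 ± 0.17 in KO cells (adjusted p = 0.174). The KO change passed with the animal as a block (adjusted p = 0.0129).

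Cd200r1 rose slightly under IL-4, from the untreated levels above to 3844, 4489 and 3848 in WT and 3692, 4207 and 4007 in KO libraries. The log2 change was 0.26 ± 0.09 in WT (adjusted p = 0.0416) and 0.31 ± 0.09 in KO cells (adjusted p = 0.0176). Without 1 library these calls were lost in 4 of 6 cases in WT (adjusted p up to 0.174) and in 3 of 6 in KO cells (adjusted p up to 0.0784), and equal library totals gave 0.10 and 0.16.

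The stimuli set against each other sorted the 8 genes by direction. In WT cells 6 were higher under IFN-gamma than under IL-4 and 2, Pdcd1lg2 and Cd200r1, were lower, against 60.5% of all genes called (30.8% higher, 29.7% lower). In KO cells 5 were higher and the same 2 were lower, against 55% (27.5% higher, 27.4% lower). Pdcd1lg2 differed by -3.49 ± 0.38 in WT (adjusted p = 3.10e-07) and -2.82 ± 0.38 in KO cells (adjusted p = 4.97e-06). Icosl differed by 2.84 ± 0.21 (adjusted p = 1.75e-09) and 2.48 ± 0.21 (adjusted p = 1.25e-08). Cd80 was higher by 0.82 ± 0.26 in WT cells (adjusted p = 0.0112), and the KO difference of 0.09 ± 0.26 did not pass (adjusted p = 0.796). The WT call was lost on leaving out WT IFN-gamma replicate 1 (0.57, adjusted p = 0.0759) or WT IL-4 replicate 3 (0.69, adjusted p = 0.0531).

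The balance of the PD-1 ligands was taken as the ratio of Cd274 to Pdcd1lg2 per kilobase within each library, which no scaling between libraries can move. Its geometric mean was 84.6 in untreated WT and 83.7 in untreated KO cells, 299.7 and 274 under IFN-gamma, and 2.78 and 3.74 under IL-4. The untreated WT ratios were 50.8, 211 and 56.6, of which the second rests on 4 reads of Pdcd1lg2, and without WT untreated replicate 2 the mean was 53.6. The ratios under IL-4 spanned 2.19 to 4.40 in WT libraries, below every untreated ratio. The ratio of Cd80 to Cd86 was 0.0302 in WT and 0.0120 in KO cells under IFN-gamma, against 0.276 and 0.173 untreated. Exact two-sided permutation tests of 3 against 3 libraries cannot go below p = 0.1, and the smallest adjusted value over the 27 comparisons of ratios was 0.15.

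**Figure D3:**
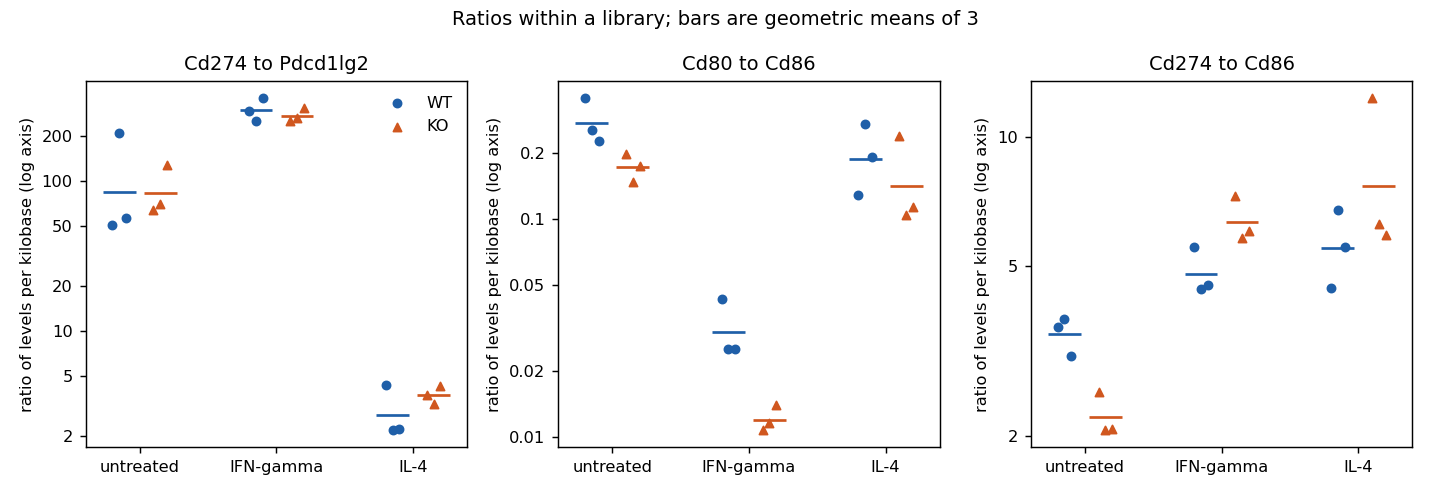
Ratios of gene levels per kilobase within each library (log axis) by treatment, with WT as circles, KO as triangles and bars for geometric means of 3 libraries. The mean Cd274 to Pdcd1lg2 ratio is 299.7 in WT cells under IFN-gamma and 2.78 under IL-4, and the Cd80 to Cd86 ratio is lowest in KO cells under IFN-gamma.

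KO cells were then compared with WT cells within each treatment. KO cells were low in Lyz2 as well as Ldha RNA, and the parts of these losses in a genotype difference cannot be told apart. In untreated cells none of the 8 genes passed, against 1.98% of all genes called. At an unadjusted p under 0.05 there were 2, Cd40 at -0.54 ± 0.15 (adjusted p = 0.0933) and Cd83 at -0.52 ± 0.17 (adjusted p = 0.138). edgeR and DESeq2 on the recovered reads called 0 of the 8 as well. The Cd40 libraries given above did not overlap between genotypes, with all 3 KO libraries lower, as in 13.7% of all genes tested. Those of Cd86 did not overlap either, with all 3 KO libraries higher, at 0.47 ± 0.34 (adjusted p = 0.700). The 13.7% covers only genes lower in KO cells, and the share of all genes higher without overlap was not counted.

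Under IFN-gamma 2 of the 8 genes were lower in KO cells and none was higher, against 27.9% of all genes called in either direction and 13.6% called lower. Cd80 was lower by a log2 change of -1.74 ± 0.26 (adjusted p = 0.000108), from a mean of 429 ± 142 (SD, n = 3) in WT to 126 ± 31.8 (SD, n = 3) in KO cells. Cd83 was lower, at -1.14 ± 0.17 (adjusted p = 7.95e-05), from 8613 ± 274 (SD, n = 3) to 3939 ± 704 (SD, n = 3). Both passed whichever 1 library was left out, with adjusted p-values up to 0.00114 and 0.000920. Without WT replicate 1, the animal whose IFN-gamma library lay farthest from the rest of its group, in any treatment, Cd80 differed by -1.49 (adjusted p = 0.000190) and Cd83 by -1.12 (adjusted p = 0.000263).

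Cd86 and Icosl had no overlap between the genotypes under IFN-gamma either, with KO below WT, but did not pass. Cd86 differed by -0.41 ± 0.34 (adjusted p = 0.402; 95% interval -1.14 to 0.31) and Icosl by -0.40 ± 0.21 (adjusted p = 0.167; -0.83 to 0.04). The spread of Cd86 was widest in WT cells under IL-4, with a mean of 1384 ± 847 (SD, n = 3), and that group shares the spread estimate. With only the 2 groups compared in the fit, its adjusted p under IFN-gamma was 0.0345. Complete separation downwards was seen in 4 of the 8 genes and in 21.4% of all genes tested.

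Cd274 under IFN-gamma differed between the genotypes by -0.01 ± 0.19 (adjusted p = 0.974), with a 95% interval of -0.41 to 0.39. Cd40 differed by -0.18 ± 0.15 (-0.51 to 0.14), Pdcd1lg2 by 0.12 ± 0.38 (-0.67 to 0.91) and Cd200r1 by -0.18 ± 0.09 (-0.37 to 0.02). The intervals bound these differences and do not show that the levels were equal.

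Under IL-4 the same pair, Cd80 and Cd83, was lower in KO cells, 2 of 8 against 6.59% of all genes called in either direction and 3.13% called lower. Cd83 differed by -0.94 ± 0.17 (adjusted p = 0.00245), from 3979.8 ± 425 (SD, n = 3) to 2097 ± 444 (SD, n = 3). Cd80 differed by -1.01 ± 0.26 (adjusted p = 0.0272), from 239 ± 58.2 (SD, n = 3) to 118 ± 26.4 (SD, n = 3). Leaving out WT IL-4 replicate 1 lost the Cd80 call (-0.82, adjusted p = 0.0905), as did leaving out KO IL-4 replicate 1 (-0.94, adjusted p = 0.0986) or KO IL-4 replicate 2 (-0.91, adjusted p = 0.0954). For 3 of the 8 genes (9.78% of all genes tested) every KO library was below every WT library. The one of these that did not pass was Pdcd1lg2, at -0.55 ± 0.38 (adjusted p = 0.424; -1.34 to 0.25), a difference that DESeq2 on the recovered reads called (adjusted p = 0.00752). Its spread estimate is shared with the untreated groups, which rest on 47 and 33 reads in all. Under IL-4 alone the means were 1311 ± 36.0 (SD, n = 3) in WT and 903 ± 117 (SD, n = 3) in KO cells. Cd274 differed by -0.11 ± 0.19 (adjusted p = 0.774; -0.51 to 0.28).

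**Figure D4:**
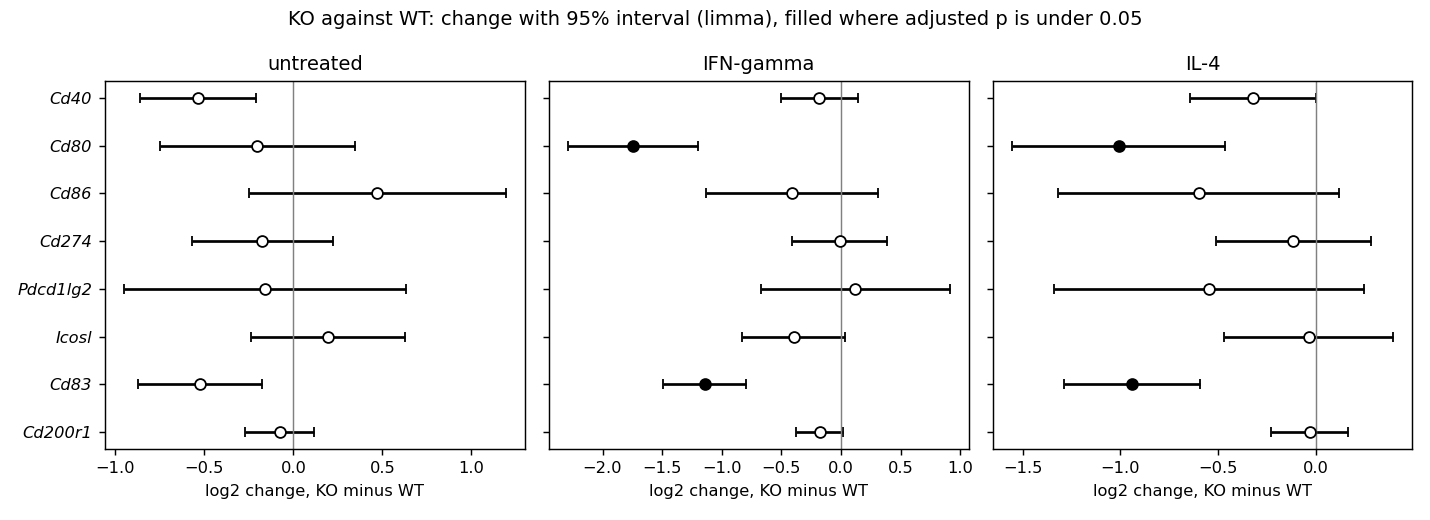
Log2 change of KO against WT (horizontal axis) for each gene in untreated, IFN-gamma-treated and IL-4-treated cells, as points with limma's 95% interval, filled where the adjusted p is under 0.05. Cd80 and Cd83 are filled under both stimuli and no gene is filled in untreated cells.

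Whether the responses themselves differed was tested as the interaction of genotype and treatment. For IFN-gamma 1 of the 8 genes passed, against 9.15% of all genes in either direction and 4.84% lower: the Cd80 response was smaller in KO cells, with a difference of -1.54 ± 0.37 (adjusted p = 0.0140). The WT animals rose by 1.42 to 1.59, and the KO animals changed by -0.39, 0.27 and 0.01. Without WT IFN-gamma replicate 1 the difference was -1.28 (adjusted p = 0.0320). For Cd83 the difference was -0.62 ± 0.23 (adjusted p = 0.112), which passed with the animal as a block (adjusted p = 0.00452). For Cd86 it was -0.89 ± 0.48 (adjusted p = 0.289) and for Icosl -0.59 ± 0.29 (adjusted p = 0.235). With only the 4 groups compared in the fit, Cd86 (adjusted p = 0.00632) and Icosl (adjusted p = 0.0305) passed. Cd274 differed by 0.16 ± 0.27, with a 95% interval of -0.40 to 0.72.

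For IL-4 none of the 8 responses differed past the threshold, against 0.007% of all genes called. At an unadjusted p under 0.05 there were 2, Cd86 at -1.07 ± 0.48 (adjusted p = 0.883) and Cd80 at -0.81 ± 0.37 (adjusted p = 0.893). edgeR and DESeq2 on the recovered reads called 0 of the 8.

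Genes that work beside these molecules were followed as lists. Under IFN-gamma 31.4% of all genes tested were called higher and 31.1% lower in WT cells, and 28.3% and 27.5% in KO cells. Under IL-4 these shares were 16.3% and 14% in WT and 15.8% and 14.5% in KO cells. Of 16 genes of CD40 and NF-kB signalling, 15 were higher under IFN-gamma in WT and 14 in KO cells and none was lower, with a median change of 1.19 in WT. Nfkbie and Tnfaip3, which restrain NF-kB, rose by 3.54 ± 0.11 and 2.64 ± 0.11 in WT cells, and Traf1 and Traf2, adaptors of the tumour necrosis factor receptor family, by 2.42 ± 0.11 and 1.72 ± 0.09. Between genotypes under IFN-gamma 7 of the 16 were lower and 2 higher in KO cells, with a median change of -0.24. As background for this and the following lists, 27.9% of all genes tested were called in that comparison and 13.6% were called lower, with a median of 0.0088. The called share was 56.2% of these 16 genes and ran from 30% in IL-4 signalling to 66.7% of the 6 genes that handle these molecules over the lists of 6 or more genes other than cell markers and checks of the labels. Nfkbie was lower, at -1.20 ± 0.11 (adjusted p = 6.77e-07) and the NF-kB subunit gene Rel at -1.15 ± 0.15 (adjusted p = 3.12e-05). Both also passed the test of the IFN-gamma interaction, at -1.46 (adjusted p = 3.24e-05) and -1.13 (adjusted p = 0.00281). None of the 16 passed between genotypes in untreated cells or under IL-4, where 1.98% and 6.59% of all genes tested were called.

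Genes of the signalling of either cytokine moved under both treatments. Of 13 genes of IFN-gamma signalling, 12 were higher and 1, the receptor chain gene Ifngr1, was lower under IFN-gamma in both genotypes, with a median change of 2.48 in WT. Irf1 rose by 5.20 in WT and 5.14 in KO cells and Socs1, a feedback inhibitor, by 8.73 and 7.94. Under IL-4 10 of the 13 were also higher in WT cells and 8 in KO cells, with Socs1 at 5.18 and Irf1 at 1.33 in WT, and none was lower. In KO against WT cells under IFN-gamma 4 were lower and 1 higher, among them Irf8 at -0.74 (adjusted p = 9.57e-07), Ifngr1 at -0.87 (adjusted p = 1.29e-06) and Ciita, the activator of MHC class II genes, at 0.76 (adjusted p = 0.0146). Of 10 genes of IL-4 signalling, 5 were higher and 1 lower under IL-4 in each genotype, with a median change of 0.36 in WT. Irf4 rose by 3.48 in WT and 4.03 in KO cells and Cish, a feedback inhibitor, by 5.28 and 5.81. Under IFN-gamma 7 of the 10 were higher and 2 lower in each genotype, with Cish at 5.80 in WT cells. Between genotypes under IFN-gamma 3 of the 10 were lower in KO cells, with Il4ra, the IL-4 receptor chain, at -0.58 (adjusted p = 0.000166), and none was higher.

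Of 8 ligands of the tumour necrosis factor family, 7 were higher and 1 was lower under IFN-gamma in WT cells, with a median change of 2.57. Under IFN-gamma 3 of them were higher and none was lower in KO than in WT cells. Tnfsf13b, which encodes the B cell survival factor BAFF, rose more in KO cells, at 4.67 against 2.93 in WT, with an interaction of 1.73 (adjusted p = 0.00518). Tnfsf4, the gene of OX40 ligand, was higher in KO cells in all 3 treatments, by 2.56 (adjusted p = 0.0490) untreated, 2.77 (adjusted p = 0.00416) under IFN-gamma and 2.96 (adjusted p = 0.0104) under IL-4. Its level was low, at a mean of 19.2 in WT and 136 in KO libraries under IFN-gamma. Of the B7 family outside the 8, Cd276 and Vsir were tested. Vsir, which encodes the checkpoint ligand VISTA, fell by 0.42 in WT and 1.51 in KO cells under IFN-gamma and was lower in KO cells, at -1.11 (adjusted p = 1.32e-08).

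Among 9 tested checkpoint and adhesion ligands, 6 were higher and 2 lower under IFN-gamma in WT cells and 7 and 2 in KO cells, and 2 were higher and 2 lower in KO cells against WT under IFN-gamma. Of 12 tested genes listed as receptors like Cd200r1, most of them known as inhibitory, 4 were higher and 5 lower under IFN-gamma in WT cells. In KO cells 1 was higher and 8 were lower. Between genotypes under IFN-gamma 2 were higher and 5 lower in KO cells, with a median change of -0.35. One of those 5 was Cd200r4, an activating relative of Cd200r1, at -0.41 (adjusted p = 0.0177). The inhibitory Fc receptor gene Fcgr2b was lower in KO cells in each treatment, at -0.96 (adjusted p = 0.000462) untreated, -1.58 (adjusted p = 2.48e-07) under IFN-gamma and -0.90 (adjusted p = 0.000519) under IL-4. Of 6 genes whose products handle these molecules or carry their signals, 3 were lower and 1 higher in KO cells under IFN-gamma. Dok2 and Dok1, adaptors downstream of the CD200 receptor, were lower, at -0.95 (adjusted p = 0.000348) and -0.58 (adjusted p = 0.000379), and Cmtm6, which stabilises PD-L1 protein, was at -0.19 (adjusted p = 0.0354). Of the T cell receptors for these ligands only Cd28 was tested: it fell by 4.96 under IFN-gamma in WT and by 3.83 in KO cells.

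Markers of dendritic cells, which carry the same costimulatory molecules, moved with the groups under both stimuli. The summed level of the 7 detected of 10 markers was 89.6 to 106 in untreated and 1841 to 2921 in IFN-gamma-treated WT libraries, and 75.1 to 126 and 1244 to 1602 in KO libraries. Under IL-4 the order was the other way round, with 273 to 404 in WT and 483 to 619 in KO libraries. Clec9a (mean 1266 in WT and 714 in KO cells under IFN-gamma) and Xcr1 (788 and 169) made up much of the sum, and Flt3, Cd209a and Siglech were not in the table. Xcr1 (-2.17, adjusted p = 0.00369) and Batf3 (-0.74, adjusted p = 0.00730) were lower in KO cells under IFN-gamma. Fscn1 (2.81, adjusted p = 0.0150) and Ccr7 (1.69, adjusted p = 0.0276) were higher, and Clec9a did not pass (-0.76, adjusted p = 0.339). Under IL-4 Ccr7 was higher in KO cells by 2.53 (adjusted p = 0.00925), at means of 7.13 and 45.7, and Batf3 made up most of the sum, at 318 in WT and 403 in KO cells. The 9 macrophage markers summed to 294196 to 307072 in WT and 231328 to 245798 in KO libraries under IFN-gamma, and to 265715 to 276720 and 201006 to 230037 under IL-4, without overlap, while the untreated genotypes overlapped. Of the 9, 4 were lower and 3 higher in KO cells under IFN-gamma, and 5 were lower and none was higher under IL-4. The summed level of 4 detected neutrophil markers was 12.4 to 20.6 in WT and 52.0 to 112 in KO libraries under IFN-gamma, and that of 6 stromal markers 136 to 230.0 and 195 to 738. The 4 detected B cell markers summed to 75.6 to 103 and 113 to 138, and the 2 detected T and NK cell markers to 74.3 to 95.3 and 84.9 to 103. In untreated cells the B cell sum was lower in KO libraries, at 396 to 450 in WT and 228 to 292 in KO. It was also lower under IL-4, at 659 to 746 and 441 to 492. The neutrophil sum was higher in KO libraries in both, at 162 to 283 and 344 to 625 untreated. Under IL-4 it was 266 to 391 and 409 to 747. T and NK cell sums overlapped untreated and were 31.3 to 37.1 and 37.6 to 59.5 under IL-4. Stromal sums overlapped in both. The part of the make-up of the cultures in the Cd80 and Cd83 differences was not tested.

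Across the 18 libraries Cd40, Cd86 and Cd274 ran closely together, with Pearson r of 0.964 for Cd40 with Cd86, 0.983 for Cd40 with Cd274 and 0.958 for Cd86 with Cd274. Cd200r1 ran against them, at -0.870 with Cd40. Cd80 was nearest to Cd83, at 0.736, and Pdcd1lg2 was far from its neighbour Cd274, at 0.384. These values describe 18 libraries that share animals, groups and scaling. Among 10143 genes with a mean of at least 100 normalized counts in 1 group or more, the gene most like Cd40 was Irf1 (r = 0.997), followed by Serpina3g and Gbp2. Cd274 was matched most closely by Arid5b (r = 0.996), H2-Q7 and Il18bp, and Cd86 by Oas3 (r = 0.993), Ms4a4c and Helz2. The closest to Cd200r1 were Clec4a3 (r = 0.987), Ccl9 and Mir99ahg, and among the closest to Pdcd1lg2 were Flt1 (r = 0.970) and Slc7a2. Icosl was followed by Nfkbiz (r = 0.974), Sema4d and Klhl6, Cd83 by Gtdc1 (r = 0.958), Rad51d and Fer, and Cd80 by Plcd1 (r = 0.945), with Ccdc122 also among its closest.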

How the data were processed

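RNA from 18 libraries (poly-A selected, directional kit, per the labels' protocols) was aligned with STAR 2.5 to GRCm38 and counted per gene with HTSeq 0.6, per the submitters' processing notes, which also name DESeq2 and edgeR. The deposited values are a signal of normalized counts, that is, gene counts that the authors divided by 1 size factor per library. The values of each library are whole multiples of 1 step, so reads were recovered: 100% came out whole within a tolerance of 0.1. Groups come from the labels.

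Starting from the deposited table, 34 repeated gene identifiers with identical values were kept once. The main test was limma 3.58.1 (R 4.3.3) with trend on log2(normalized count + 1), with all 6 groups in 1 fit (12 residual degrees of freedom) and Benjamini-Hochberg adjustment over 14288 genes. Alternatives were edgeR 4.0.16 and DESeq2 1.42.0 on the recovered reads, which called 4090 and 4313 genes between genotypes under IFN-gamma where limma called 3980, other pseudocounts (0.5 and 5), filters and scalings, fits of only the groups compared, an animal or replicate block, and each library left out. The fit was tested on simulated counts for KO against WT, untreated: of 13870 genes, limma recovered 59.7% of 67 genes changed 1.5-fold, 91% of 67 changed 2-fold and 100% of 66 changed 4-fold. Of its 172 calls, 5 were false. Apart from these changes each gene had the same simulated mean in all 6 groups, and genes with low means were left unchanged. Recovery of changes at low levels was therefore not measured.

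Animal codes in the labels tie the libraries of 1 animal across treatments, which pairs the responses. Deviations from the group means of the 18 same-animal pairs correlated at 0.00 to 0.24, 13 of them above 0.1. Nothing in the labels says that animals shared a litter or day. Positions of 97.8% of the gene identifiers were found in GENCODE M21. The 8 genes and all gene lists were chosen with earlier results of these data known. Named genes are the 8, the called genes of each list with the lowest adjusted p in a comparison (at most 4), the label checks, and the 3 genes with the highest r with each of the 8, of which some are not reported here. Gene lengths are exon lengths from GENCODE.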

Additional observations from a re-analysis of the deposited data

Results flagged for a closer look

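In the main fit Cd80 alone of the 8 genes passed the test of the difference between the IFN-gamma responses of KO and WT cells. The difference was -1.54 ± 0.37 on the log2 scale (limma, adjusted p = 0.0140). In other fits more of the 8 passed: Cd83 with the animal as a block, and Cd86 and Icosl with only the groups compared. For Cd80 all 3 WT animals rose, by at least 1.42, and the KO animals ranged from -0.39 to 0.27. In the same libraries the summed dendritic cell markers were 1841 to 2921 in WT and 1244 to 1602 in KO cells under IFN-gamma. The 9 macrophage markers summed to 294196 to 307072 and 231328 to 245798. Within both sums some markers were lower and others higher in KO cells. The part of these markers in the Cd80 difference was not tested.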

How the results depend on the processing

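The number of the 8 genes called between genotypes was 0 in untreated cells and became 1 with only the groups compared, 2 with the replicate block and 1 without WT replicate 1 in all treatments (chosen after seeing the data). Under IL-4 it was 2 and became 1 with only the groups compared, and ranged from 1 to 2 without 1 library. For the interaction under IFN-gamma it was 1 and became 3 with only the groups compared and 2 with the replicate block, which for responses and their differences is the animal. Outside these the counts stayed within 1.5 times. KO and WT libraries of 1 number are different animals, whose deviations correlated at -0.21 to 0.10; their block let Cd40 (adjusted p = 0.0499) and Cd83 (adjusted p = 0.0257) pass in untreated cells. Within animals, the block changed no call besides those of Cd80 and Cd83 given above.

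Equal library totals moved the median of all genes by -0.30 (WT) and -0.35 (KO) under IFN-gamma, -0.16 and -0.14 under IL-4, and -0.14 and -0.21 between the stimuli. With it the signs turned of Icosl (0.019) and Cd200r1 (0.024) between genotypes under IL-4, Icosl under IFN-gamma in KO cells (-0.080), Cd83 under IL-4 in WT cells (-0.059) and Cd80 between the stimuli in KO cells (-0.12). Quantile normalization turned Cd274 between genotypes under IFN-gamma (0.012, as did TMM at 0.012) and Cd80 in KO cells under IFN-gamma (0.13) and IL-4 (9.73e-05). edgeR (0.073) and DESeq2 (0.057) turned Icosl between genotypes under IL-4. Without WT replicate 1 in all treatments the signs turned between genotypes of Cd80 (0.0086) and Pdcd1lg2 (0.26) untreated, Cd274 under IFN-gamma (0.092) and IL-4 (0.20) and Icosl under IL-4 (0.0063), and of the Pdcd1lg2 interaction under IFN-gamma (-0.026). None of these had passed before.

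Without 1 library, signs turned within these ranges: between genotypes untreated, Cd80 -0.35 to 0.0086 and Pdcd1lg2 -0.82 to 0.26; under IFN-gamma, Cd274 -0.070 to 0.092 and Pdcd1lg2 -0.074 to 0.23; under IL-4, Cd274 -0.29 to 0.20, Icosl -0.29 to 0.18 and Cd200r1 -0.074 to 0.043. Responses that turned were Cd80 in KO cells under IFN-gamma (-0.20 to 0.17) and IL-4 (-0.30 to 0.022), Cd86 in KO cells under IL-4 (-0.18 to 0.62), Cd83 in WT cells under IL-4 (-0.044 to 0.19) and Cd80 between the stimuli in KO cells (-0.080 to 0.29). Interactions that turned were Pdcd1lg2 under IFN-gamma (-0.14 to 0.94) and IL-4 (-0.80 to 0.27) and Cd274 under IL-4 (-0.11 to 0.37). The cause was not tested. A design of 3 animals a group and, for untreated Pdcd1lg2, few reads limit these values.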

Other observations

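The stretch of chromosome 19 that holds Cd274 and Pdcd1lg2 was looked at after the responses of these genes were known. Of 11 tested genes within 250 kb on either side, 8 were higher in all 4 responses (IFN-gamma and IL-4, in WT and KO cells), where 5.97% of all tested genes were. Of these 8, 6 were neither Cd274 nor Pdcd1lg2. Among the 6 were Gm36043, which lies within Cd274, and A930007I19Rik, which overlaps the ends of Pdcd1lg2 and Ric1. Such entries are not separate from the genes they overlap. Jak2, the kinase gene of the IFN-gamma receptor, rose by 2.14 ± 0.11 under IFN-gamma and 1.27 ± 0.11 under IL-4 in WT cells, and Ric1 by 1.94 ± 0.15 and 0.77 ± 0.15. Plgrkt, which lies between Insl6 and Cd274, rose by 0.70 ± 0.10 and 0.32 ± 0.10. At the edges of the window Rcl1 fell by 1.57 ± 0.31 under IFN-gamma in WT cells, and 9930021J03Rik changed by 0.04 ± 0.09. Whether neighbours share reads or transcription was not tested.

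Counted over the 8 genes, the KO mean on the log2 scale was below the WT mean for 6 in untreated cells, 7 under IFN-gamma and 8 under IL-4, where 48.4%, 48.9% and 47.8% of all tested genes had a value below 0. Most of these differences did not pass on their own, and the genes share libraries. The counts also depend on the processing, as some signs turned in the settings above. With another scaling these were Icosl and Cd200r1 under IL-4 and Cd274 under IFN-gamma. Without WT replicate 1 they included Cd80 and Pdcd1lg2 in untreated cells.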
